A study of Homo sapiens with 6 samples.

Results

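The genes that copy DNA and supply it with nucleotides were followed in HK-2 cells, a human proximal tubular cell line, after knockdown of INO80, the ATPase of a chromatin remodeling complex. The 45 genes were taken by symbol from the 57905 genes of the deposited table. They cover origin licensing, helicase activation, the DNA polymerases, the sliding clamp and its loader, nucleotide supply, chromatin assembly and the S-phase cyclins. Each symbol matched a single row, and all 45 genes passed the filter on low counts. The study had 6 bulk RNA-seq libraries. Wild-type HK-2 cells received a non-targeting control siRNA pool in 3 libraries and a siRNA pool against INO80 in 3 libraries, with RNAiMAX in all, and were harvested after 48 h. No source used here states whether replicates came from separate cultures, so p values measure the spread between these libraries, which may be technical. Gene counts summed to between 16829273 and 20311588 in the control siRNA libraries and to between 20678008 and 23784599 in the INO80 siRNA libraries. Of the 13 matched genes on a list of proximal tubule markers, 6 had a mean FPKM of at least 1. Among these, PAX8 and KRT18 had a mean FPKM of 39.5 and 44.0 over the libraries. SLC34A1 had a mean FPKM of only 0.0967, and CUBN, ANPEP and VIL1 were lower still. The transport genes SLC22A6 and SLC22A8 had no read, and LRP2 had at most 1 read in any library. Endothelial and leukocyte markers summed to at most 0.41 FPKM in any library. The 4 fibroblast markers summed to between 49.4 and 116 FPKM, mostly LUM with a mean of 66.7 FPKM over the libraries.

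DNA replication starts when the origin recognition complex, CDC6 and CDT1 load the MCM helicase on chromatin in G1 phase. In S phase, the DBF4-dependent kinase CDC7, CDC45 and the GINS complex turn the helicase on, polymerase alpha-primase lays primers, and polymerases delta and epsilon extend them while held by PCNA, which the RFC complex loads. Many of these genes are targets of E2F transcription factors, so their mRNA levels are commonly read as a measure of how many cells are entering or passing through S phase. In bulk RNA, fewer cells in S phase and less RNA per cell cannot be told apart.

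INO80 (ENSG00000128908, chromosome 15 from 41271078 to 41408552 of GRCh37) was looked at first, since the siRNA targets it. It was counted at 46.3, 49.3 and 54.00 CPM in replicates 1, 2 and 3 with control siRNA and at 13.8, 12.05 and 14.2 CPM in those with INO80 siRNA, where CPM is the count scaled to the library total by TMM. The log2 ratio (log2 fold change, INO80 siRNA over control siRNA) was -1.90 ± 0.0956 (fitted value ± standard error), with an edgeR adjusted p of 0.000161.

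The replication genes as a group took close to the same share of the reads with and without knockdown, and none passed the test of the treatment alone. Together they took 0.366%, 0.432% and 0.419% of the counted reads in control siRNA replicates 1, 2 and 3, and 0.362%, 0.431% and 0.422% in INO80 siRNA replicates 1, 2 and 3. The means were 0.406 ± 0.0348% and 0.405 ± 0.0372% (SD, n = 3). None of the 45 genes was called, at an adjusted p under 0.05 over all 15343 tested genes in edgeR with the treatment alone. In that test 1.75% of all tested genes were called, 1.49% lower and 0.261% higher. By DESeq2, 1 of the 45 genes, CCNE2, was called, beside 4.58% of all genes with an adjusted p there. At an unadjusted p under 0.05 there were 9 genes, 4 lower and 5 higher (edgeR), which is 20% of the members against 16.4% of all tested genes (9.20% lower, 7.18% higher). The log2 ratios ranged from -0.31 for POLE2 to 0.41 for CCNE2, with a median of -0.03 over the 45 genes and 0.01 over all tested genes. The members' median turned positive, to 0.02, when control siRNA replicate 2 or INO80 siRNA replicate 1 was left out. The middle of the distribution was also narrower, from -0.11 to 0.04 between the quartiles of the members and from -0.14 to 0.13 between those of all tested genes. For 44 of the 45 genes the 95% interval of the fold change lay inside a 1.5-fold change in either direction, the exception being CCNE2. These genes were well counted, with a mean of between 380 reads for POLE2 and 10200.2 reads for TOP2A per library, and 65.3% of all tested genes had an interval that tight.

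Libraries that shared a replicate number moved together around their group means. Entering that number into the model gave smaller standard errors, with a median of 0.0503 against 0.0840 without the block over the 45 genes. With the replicate block, 13 genes were called by edgeR. Among them, ORC3, POLE2, RFC2, RRM1, TYMS, TK1 and WDHD1 were lower, and ORC2, ORC5, GINS3, LIG1, CCNE2 and CCNA2 were higher. This count of 13, or 28.9% of the members, stood beside 24.8% of all tested genes called in that fit. The number was near the background in each direction too, with 7 lower where 13.4% of all tested genes were lower and 6 higher where 11.4% were higher. DESeq2 with the replicate block called 5 of the 13, namely CCNE2, LIG1, ORC3, TYMS and WDHD1, beside 13.9% of all genes with an adjusted p there. All 5 were also called by edgeR with the replicate block when any single replicate pair was left out. Without replicate 2 or 3 the blocked count fell to 7 and 6 genes, and without replicate 1 it was 14. Over all tested genes the same fits called 2623 of 15439, 2251 of 15409 and 3978 of 15659, in that order. In CPM the groups did not overlap for 9 of the 45 genes, 4 lower and 5 higher, against 22.8% of all tested genes (11.5% lower, 11.3% higher). The sign was the same in all 3 replicate pairs for 27 of the 45 genes, or 60%, against 52.7% of all tested genes (25.9% lower, 26.8% higher), with 18 lower and 9 higher.

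**Figure D1:**
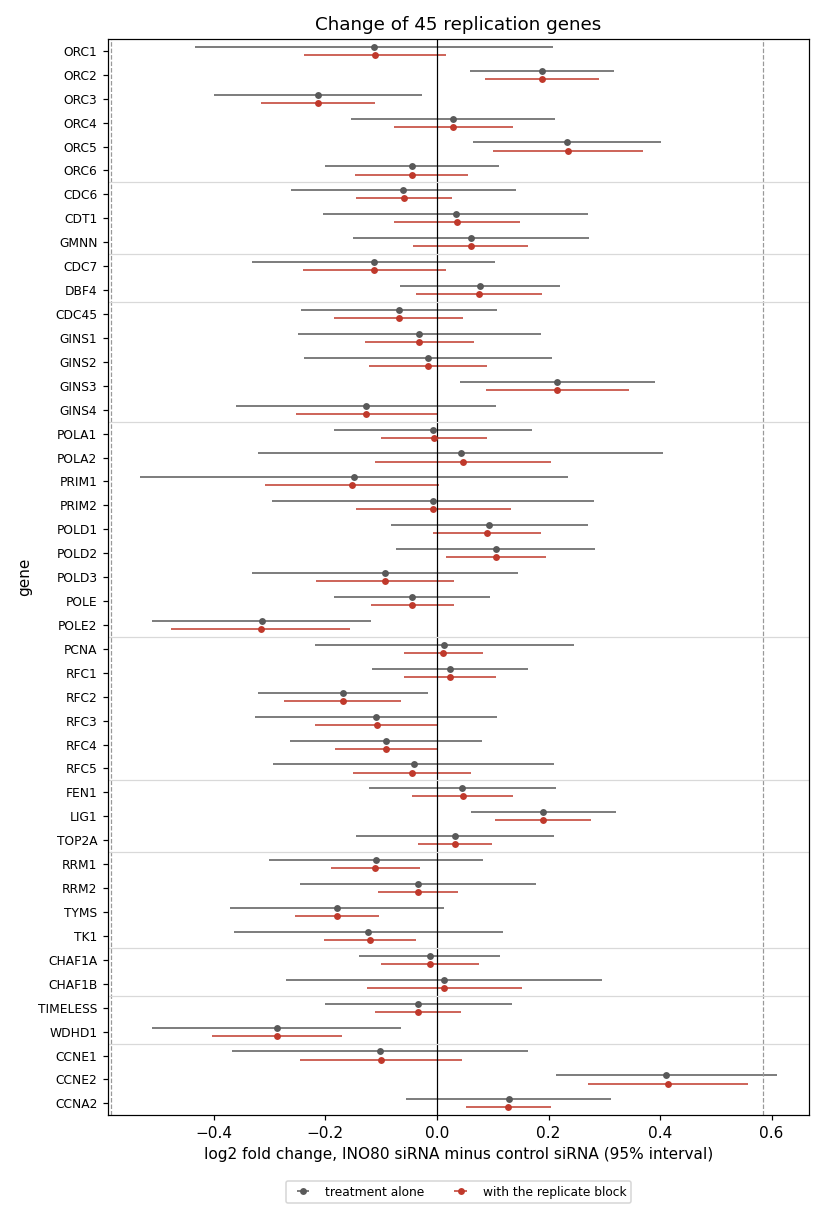
Log2 ratio of each of the 45 genes, INO80 siRNA over control siRNA, on the horizontal axis, with 95% intervals from edgeR with the treatment alone (grey) and with the replicate block (red). Dashed lines mark a 1.5-fold change, which only the grey interval of CCNE2 crosses, and grey lines part the roles.

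In the median over the 45 genes, the level differed more by replicate number than by treatment, where genes that rise and fall cancel. Single genes such as CCNE2, ORC2, POLE2 and LIG1 differed more by treatment than replicate 1 did from the other replicates. In control siRNA replicate 1, 39 of the 45 genes were at the lowest level of the 3 control siRNA libraries, and in INO80 siRNA replicate 1, 38 were at the lowest level of their group. For 36 genes, or 80.0%, replicate 1 was lowest in both groups, against 24.7% of all tested genes. The median log2 difference of replicate 1 from the mean of replicates 2 and 3 was -0.16 under control siRNA and -0.18 under INO80 siRNA, both far from the median log2 ratio of the treatment. POLA2, the accessory subunit of polymerase alpha, was at 18.3, 28.4 and 27.1 CPM with control siRNA and 22.9, 25.7 and 27.6 with INO80 siRNA in replicates 1, 2 and 3. PRIM1, the catalytic primase subunit, was at 20.1, 25.9 and 24.2 CPM and 15.7, 23.5 and 24.02 CPM in the same order. The exceptions to this pattern in both groups were ORC2, POLD1, CHAF1A and CCNE1. In the other gene lists, replicate 1 was lowest in both groups for 36 of 52 further replication factors and 14 of 20 mitotic genes. Replicate 1 also had the smallest total count of its group, and its summed level of the 4 fibroblast markers LUM, COL1A1, DCN and PDGFRB, of which 3 had a mean FPKM of at least 1, was 116 and 101 FPKM in the control and INO80 siRNA libraries, against 49.4 to 64.0 FPKM in the other 4 libraries. That sum was mostly LUM, with a mean of 66.7 FPKM over the 6 libraries against 4.84 for COL1A1, 2.44 for DCN and 0.10 for PDGFRB. The part of the total count and of these markers in the difference was not tested.

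**Figure D2:**
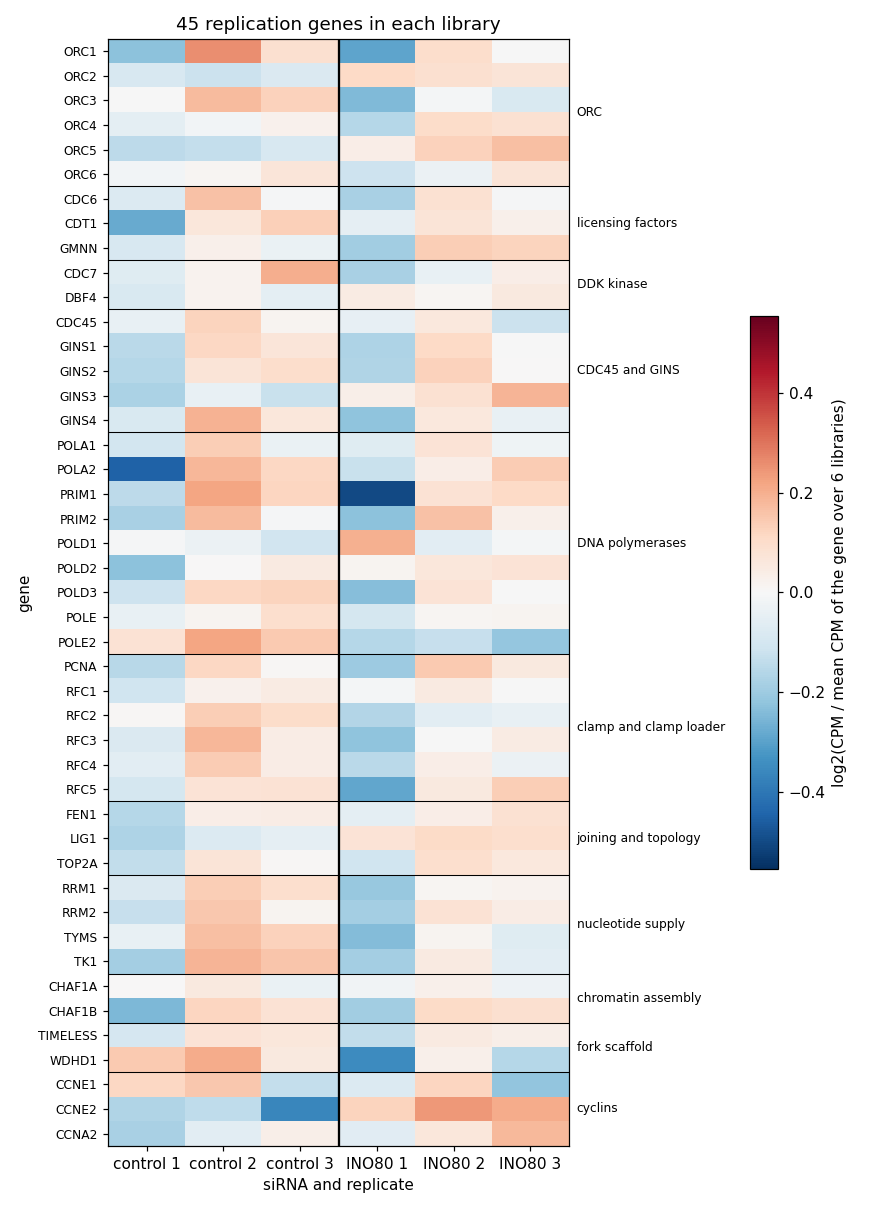
Level of each of the 45 genes (rows, grouped by role) in each library (columns), as log2 of the CPM over the gene's mean CPM in the 6 libraries. Most rows are blue in replicate 1 of either group and red in replicates 2 and 3, while few rows change colour across the black line that parts control from INO80 siRNA.

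Since many replication genes are known E2F targets, promoter windows from RefSeq (GRCh38.p14) were searched for the core letters of the E2F site. A window runs from 250 bases before to 50 bases after a gene's start, and 42 of the 45 symbols had at least 1. CCNE2, GINS4 and POLD3 had none. TTCCCGC or TTGGCGC, on either strand, was found for 26 of the 42 genes, or 61.9%, against 18% of the 10025 tested genes and 11% of all 27305 genes with a window. CCAAT, the NF-Y box, which can share bases with TTGGCGC, was found for 54.8% of the members and 43.1% of the tested genes. TTTGAA, a cell cycle homology region, was found for 7.14% of the members and 13.4% of the tested genes. These letters were found at genes of both directions. Of the 12 genes with a window that passed the threshold with the replicate block, 9 held the E2F letters, and they were 7 of 7 that were lower and 2 of 5 that were higher. CCNE2, which was also higher with the replicate block, had no window and is not in these counts. Among the members that did not pass, 17 of 30 held them. The stretches nearest to the gene's start are shown for the 9 genes that passed and held them, to set the lower and the higher genes side by side, with the E2F letters in capitals and on the strand where they read as given.
ORC3, chr6:87590112-87590140, minus strand: gcactcgggatTTCCCGCgcgccctcgcg
POLE2, chr14:49688202-49688230, plus strand: atatttgcgatTTGGCGCcaccgccgcag
RFC2, chr7:74254387-74254415, plus strand: cgcgcctcctcTTCCCGCcacccgaggca
TYMS, chr18:657603-657631, minus strand: ccgcgcgccttTTCCCGCggccgtcccgc
TK1, chr17:78187047-78187075, plus strand: taagcccctggTTCCCGCgccgaccgctt
WDHD1, chr14:55027060-55027088, plus strand: acaagagctgcTTCCCGCgcttcggctcg
RRM1, chr11:4094451-4094479, plus strand: caagaaaaacgTTCCCGCcggttaggttt
GINS3, chr16:58392455-58392483, minus strand: ttgaaactcgtTTCCCGCgcccggggacg
LIG1, chr19:48170440-48170468, minus strand: cttcaccccttTTCCCGCcctcctcccat
The first 7 belong to genes that were lower with the replicate block, and the last 2 to genes that were higher. The letters lay within 39 bases of the gene's start in 7 of the 9, and 113 bases before it in LIG1 and 223 bases before it in RRM1. A match is a description of the letters and says nothing of binding in these cells.

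Per length, the members spanned a wide range of levels. Under control siRNA the mean FPKM, the count scaled to exonic length and library total, was highest for PCNA at 193 ± 21.1 and lowest for POLA2 at 4.29 ± 1.03 (SD, n = 3), with a median of 15.7 over the 45 genes. Above 50 FPKM were 6 genes, namely PCNA, TK1, TYMS, TOP2A, RRM2 and CCNA2. Within the origin recognition complex, ORC3 (16.2 ± 1.30 FPKM) and ORC6 (13.96 ± 0.626 FPKM) stood above ORC1 (10.3 ± 1.87) and ORC2 (8.75 ± 0.180), whose libraries overlapped, and ORC5 (6.69 ± 0.235) and ORC4 (6.41 ± 0.276) were lowest and also overlapped. Under INO80 siRNA, ORC2 (10.04 ± 0.157 FPKM) came above ORC1 (9.57 ± 1.51 FPKM), whose 3 libraries differed more than those means did. The GINS subunits fell into a high and a low pair, with GINS2 (16.9 ± 1.88 FPKM) and GINS1 (15.7 ± 1.76 FPKM) above GINS4 (5.95 ± 0.667 FPKM) and GINS3 (5.88 ± 0.365 FPKM), and the libraries overlapped within each pair. Under INO80 siRNA, GINS3 (6.87 ± 0.525 FPKM) came above GINS4 (5.49 ± 0.660 FPKM), with no overlap between their libraries. The RFC subunits lay close together, between 18.5 ± 2.00 FPKM for RFC3 and 25.7 ± 2.17 FPKM for RFC4. In polymerase alpha-primase, POLA1 (11.2 ± 1.14 FPKM) and PRIM1 (9.57 ± 1.37 FPKM) stood above PRIM2 (5.29 ± 0.730 FPKM) and POLA2. The order within RFC and polymerase alpha-primase was the same under INO80 siRNA.

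**Figure D3:**
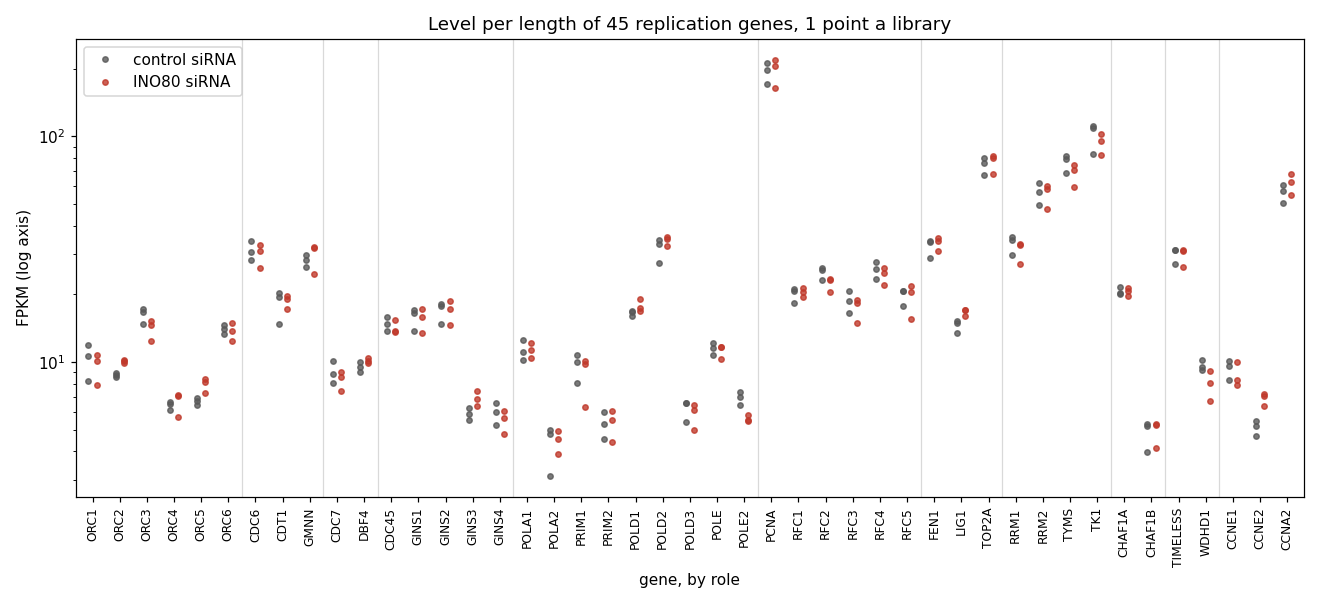
FPKM of the 45 genes on a log axis, with 1 point for each library, control siRNA in grey and INO80 siRNA in red, and grey lines between roles. PCNA is highest at 193 and 197 FPKM on average, and the grey and red points overlap for most genes.

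The origin recognition complex marks the sites where replication can begin (gene coordinates are those of GRCh37). None of its 6 subunits was called in edgeR with the treatment alone. With the replicate block 2 were higher and 1 was lower, beside 11.4% and 13.4% of all tested genes. ORC2 (ENSG00000115942, chromosome 2 from 201773696 to 201828403) was at 51.5, 50.5 and 51.9 CPM in control siRNA replicates 1, 2 and 3 and at 59.2, 58.4 and 57.7 CPM in INO80 siRNA replicates 1, 2 and 3. The groups did not overlap, and the SD within each was under 1 CPM (n = 3). The log2 ratio was 0.19 ± 0.0565 (95% interval 0.06 to 0.32), with an edgeR adjusted p of 0.144, or 0.00629 with the replicate block. ORC5 (ENSG00000164815, chromosome 7 from 103766788 to 103848495) was at 24.6, 24.8 and 25.6 CPM in control siRNA replicates 1, 2 and 3 and at 27.95, 29.7 and 30.5 CPM in INO80 siRNA replicates 1, 2 and 3. These groups did not overlap either, with a log2 ratio of 0.23 ± 0.0738 (95% interval 0.06 to 0.40) and an edgeR adjusted p of 0.165, or 0.00905 with the replicate block. ORC3 (ENSG00000135336, chromosome 6 from 88299839 to 88377169) was at 54.8, 61.97 and 60.1 CPM in control siRNA replicates 1, 2 and 3 and at 46.3, 54.5 and 51.8 CPM in INO80 siRNA replicates 1, 2 and 3. It was lower in every replicate pair and the groups did not overlap, with a log2 ratio of -0.21 ± 0.0815 (95% interval -0.40 to -0.03) and an edgeR adjusted p of 0.242, or 0.00227 with the replicate block. The other 3 subunits overlapped between groups. ORC1, the ATPase subunit whose level follows the cell cycle, had a log2 ratio of -0.11 (95% interval -0.43 to 0.21), ORC4 one of 0.03 (-0.15 to 0.21) and ORC6 one of -0.05 (-0.20 to 0.11). Read counts of ORC4 may be shared with ACVR2A and MBD5, which overlap it on the other strand.

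None of the licensing factors passed the threshold in edgeR with or without the replicate block. CDC6, which helps ORC to load the helicase, was at 105 ± 9.03 CPM with control siRNA and at 101 ± 9.30 CPM with INO80 siRNA (mean ± SD, n = 3). CDT1, its partner, was at 60.4 ± 8.85 and 61.9 ± 2.70 CPM, and GMNN, the inhibitor of CDT1, was at 69.97 ± 2.92 and 72.99 ± 8.99 CPM (SD, n = 3). The 95% intervals of their log2 ratios were -0.26 to 0.14, -0.20 to 0.27 and -0.15 to 0.27. For the kinase CDC7 and its activator DBF4, which start the helicase at licensed origins, the log2 ratios were -0.11 (-0.33 to 0.10) and 0.08 (-0.07 to 0.22).

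Among the parts of the active helicase, GINS3 was the exception. GINS3 (ENSG00000181938, chromosome 16 from 58328984 to 58440048) was at 28.8, 31.7 and 29.8 CPM in control siRNA replicates 1, 2 and 3 and at 33.3, 34.5 and 37.1 CPM in INO80 siRNA replicates 1, 2 and 3. The groups did not overlap, with a log2 ratio of 0.22 ± 0.0765 (95% interval 0.04 to 0.39) and an edgeR adjusted p of 0.207, or 0.0119 with the replicate block. With the treatment alone, CDC45 and the other GINS subunits had negative log2 ratios whose intervals included 0. These were -0.07 for CDC45, -0.03 for GINS1, -0.02 for GINS2 and -0.13 for GINS4. With the replicate block the interval of GINS4 was -0.253 to -0.000726, with an edgeR adjusted p of 0.140. Of the 4 GINS subunits, GINS3 was thus alone in being higher in every replicate pair, by 0.21, 0.12 and 0.31 on the log2 scale in pairs 1, 2 and 3. GINS1 and GINS4 were lower in every pair, but for GINS1 the differences were only -0.0204, -0.00294 and -0.0705.

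Of the 9 polymerase genes, POLE2 alone passed the threshold with the replicate block. POLE2 (ENSG00000100479, chromosome 14 from 50110273 to 50155140) was at 19.5, 21.5 and 20.4 CPM in control siRNA replicates 1, 2 and 3 and at 16.6, 16.9 and 15.9 CPM in INO80 siRNA replicates 1, 2 and 3. POLE2 encodes the second subunit of the leading-strand polymerase epsilon, and its groups did not overlap, with a log2 ratio of -0.31 ± 0.0859 (95% interval -0.51 to -0.12) and an edgeR adjusted p of 0.116, or 0.00366 with the replicate block. With INO80 siRNA, POLE2 averaged 0.805 of its mean with control siRNA. POLE, the catalytic subunit of the same enzyme, was at 191 ± 9.00 and 185 ± 8.03 CPM (SD, n = 3), with a log2 ratio of -0.04 and a 95% interval of -0.18 to 0.10. The polymerase alpha-primase genes POLA1, POLA2, PRIM1 and PRIM2 had log2 ratios of -0.01, 0.04, -0.15 and -0.01, and the widest interval, that of PRIM1, was -0.53 to 0.24. PRIM1 lies beside the far more abundant NACA, which overlaps it on the same strand, so its count is uncertain. The polymerase delta genes POLD1, POLD2 and POLD3 had log2 ratios of 0.09, 0.11 and -0.09, with intervals that included 0 with the treatment alone. With the replicate block the interval of POLD2 was 0.02 to 0.20, with an edgeR adjusted p of 0.0768.

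PCNA, the sliding clamp and the most abundant member per length, was at 258, 310.4 and 288 CPM in control siRNA replicates 1, 2 and 3 and at 249, 317 and 297 CPM in INO80 siRNA replicates 1, 2 and 3. The log2 ratio was 0.01 with a 95% interval of -0.22 to 0.25, or -0.06 to 0.08 with the replicate block. In the clamp loader, RFC2 (ENSG00000049541, chromosome 7 from 73645829 to 73668774) was at 52.1, 56.9 and 55.6 CPM with control siRNA and at 46.3, 49.7 and 50.3 CPM with INO80 siRNA in replicates 1, 2 and 3. The groups did not overlap, with a log2 ratio of -0.17 ± 0.0667 (95% interval -0.32 to -0.02) and an edgeR adjusted p of 0.255, or 0.0153 with the replicate block. RFC1, the large subunit, had a log2 ratio of 0.02 (-0.12 to 0.16), and RFC3, RFC4 and RFC5 had -0.11, -0.09 and -0.04, each with an interval that included 0. RFC4 overlaps EIF4A2 and RFC5 overlaps WSB2 on the other strand, and both neighbours were counted with more reads than the RFC gene.

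LIG1, the ligase that seals Okazaki fragments, was higher under INO80 siRNA with the replicate block. LIG1 (ENSG00000105486, chromosome 19 from 48618702 to 48673860) was at 90.8, 97.2 and 98.7 CPM in control siRNA replicates 1, 2 and 3 and at 108, 110.1 and 109 CPM in INO80 siRNA replicates 1, 2 and 3. The groups did not overlap, with a log2 ratio of 0.19 ± 0.0570 (95% interval 0.06 to 0.32) and an edgeR adjusted p of 0.144, or 0.00129 with the replicate block. FEN1, the nuclease that trims the flap before LIG1 acts, was at 80.5 ± 6.21 and 83.1 ± 4.04 CPM (SD, n = 3), a log2 ratio of 0.05 (-0.12 to 0.21). TOP2A, which untangles sister chromatids and is abundant in cycling cells, was at 482 ± 35.2 and 493 ± 36.9 CPM (SD, n = 3), a log2 ratio of 0.03 (-0.14 to 0.21).

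The 4 genes of nucleotide supply all had negative log2 ratios, and 3 of the 4 were called lower in edgeR with the replicate block, where 13.4% of all tested genes were. DESeq2 with the replicate block called TYMS alone of the 4. TYMS (ENSG00000176890, chromosome 18 from 657604 to 673578) was at 174, 201 and 196 CPM in control siRNA replicates 1, 2 and 3 and at 152, 181 and 171 CPM in INO80 siRNA replicates 1, 2 and 3. TYMS, thymidylate synthase, was lower in every pair, with differences of -0.20, -0.15 and -0.19 on the log2 scale, although the groups overlapped, with a log2 ratio of -0.18 ± 0.0838 (95% interval -0.37 to 0.01) and an edgeR adjusted p of 0.341, or 0.000567 with the replicate block. Its neighbour ENOSF1, which overlaps TYMS on the other strand and was counted with 12.7% as many reads, had a log2 ratio of -0.22 (adjusted p = 0.369, edgeR, or 0.0393 with the replicate block). TK1, the thymidine kinase of the salvage route (ENSG00000167900, chromosome 17 from 76170160 to 76183314), was at 159, 206 and 201 CPM with control siRNA and at 159, 187 and 173 CPM with INO80 siRNA. The groups overlapped, with a log2 ratio of -0.12 ± 0.106 (95% interval -0.36 to 0.12) and an edgeR adjusted p of 0.625, or 0.0282 with the replicate block. Its pair differences were 0.00, -0.14 and -0.21 on the log2 scale, so the first pair hardly moved. RRM1, the large subunit of ribonucleotide reductase, had a log2 ratio of -0.11 (adjusted p = 0.577, edgeR, or 0.0371 with the replicate block). RRM2, its S-phase partner, had one of -0.03 (-0.25 to 0.18).

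The chromatin assembly genes CHAF1A and CHAF1B, which place histones on new DNA, did not pass the threshold in edgeR with or without the replicate block. CHAF1A was at 88.6 ± 2.82 and 87.8 ± 1.78 CPM and CHAF1B at 24.7 ± 3.33 and 24.97 ± 2.80 CPM (SD, n = 3), with intervals of -0.14 to 0.11 and -0.27 to 0.30 for the log2 ratio. MORC3, which overlaps CHAF1B on the same strand and was counted with 88.8% as many reads, had a log2 ratio of -0.47 (adjusted p = 0.0264, edgeR, or 1.65e-05 with the replicate block). WDHD1 (ENSG00000198554, chromosome 14 from 55405668 to 55493823) was at 61.96, 64.8 and 58.3 CPM in control siRNA replicates 1, 2 and 3 and at 44.02, 57.2 and 50.3 CPM in INO80 siRNA replicates 1, 2 and 3. WDHD1, which ties polymerase alpha to the helicase, did not overlap between groups, with a log2 ratio of -0.29 ± 0.0978 (95% interval -0.51 to -0.06) and an edgeR adjusted p of 0.191, or 0.000417 with the replicate block. Its pair differences were -0.49, -0.18 and -0.21 on the log2 scale, so the first pair differed most. TIMELESS, which protects the moving fork, was at 152 ± 9.56 and 149 ± 10.4 CPM (SD, n = 3), a log2 ratio of -0.03 (-0.20 to 0.13).

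The cyclins held the member with the smallest p value in both fits. CCNE2 (ENSG00000175305), cyclin E2, which drives CDK2 at the start of S phase, was at 23.5, 23.9 and 20.5 CPM in control siRNA replicates 1, 2 and 3 and at 28.7, 31.2 and 30.4 CPM in INO80 siRNA replicates 1, 2 and 3. Every INO80 siRNA library was above every control siRNA library, at 1.33 times the control level, with a log2 ratio of 0.41 ± 0.0866 (95% interval 0.21 to 0.61) and an edgeR adjusted p of 0.0574, or 6.83e-05 with the replicate block. DESeq2 without the block gave an adjusted p of 0.0136. NDUFAF6, which overlaps CCNE2 on the other strand and was counted with 66.4% as many reads, had a log2 ratio of 0.50 (adjusted p = 0.0932, edgeR, or 0.000392 with the replicate block). INTS8 also overlaps CCNE2 on the other strand and was counted with 135% as many reads. Its log2 ratio was 0.00 (adjusted p = 0.993, edgeR). Whether counting used the strand is not given in the sources used here, and reads shared with NDUFAF6 or INTS8 were not tested. CCNE1, the sister cyclin, had a log2 ratio of -0.10 (-0.37 to 0.16). CCNA2 (ENSG00000145386, chromosome 4 from 122737599 to 122745087) was at 146, 159 and 169 CPM in control siRNA replicates 1, 2 and 3 and at 158, 172 and 187 CPM in INO80 siRNA replicates 1, 2 and 3. CCNA2, cyclin A2 of S and G2 phase, was higher in every pair while the groups overlapped, with a log2 ratio of 0.13 ± 0.0805 (95% interval -0.06 to 0.31) and an edgeR adjusted p of 0.482, or 0.0112 with the replicate block. EXOSC9, which overlaps CCNA2 on the other strand and was counted with 29.7% as many reads, had a log2 ratio of 0.16 (adjusted p = 0.270, edgeR, or 0.0260 with the replicate block), and reads shared with it were not tested.

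**Figure D4:**
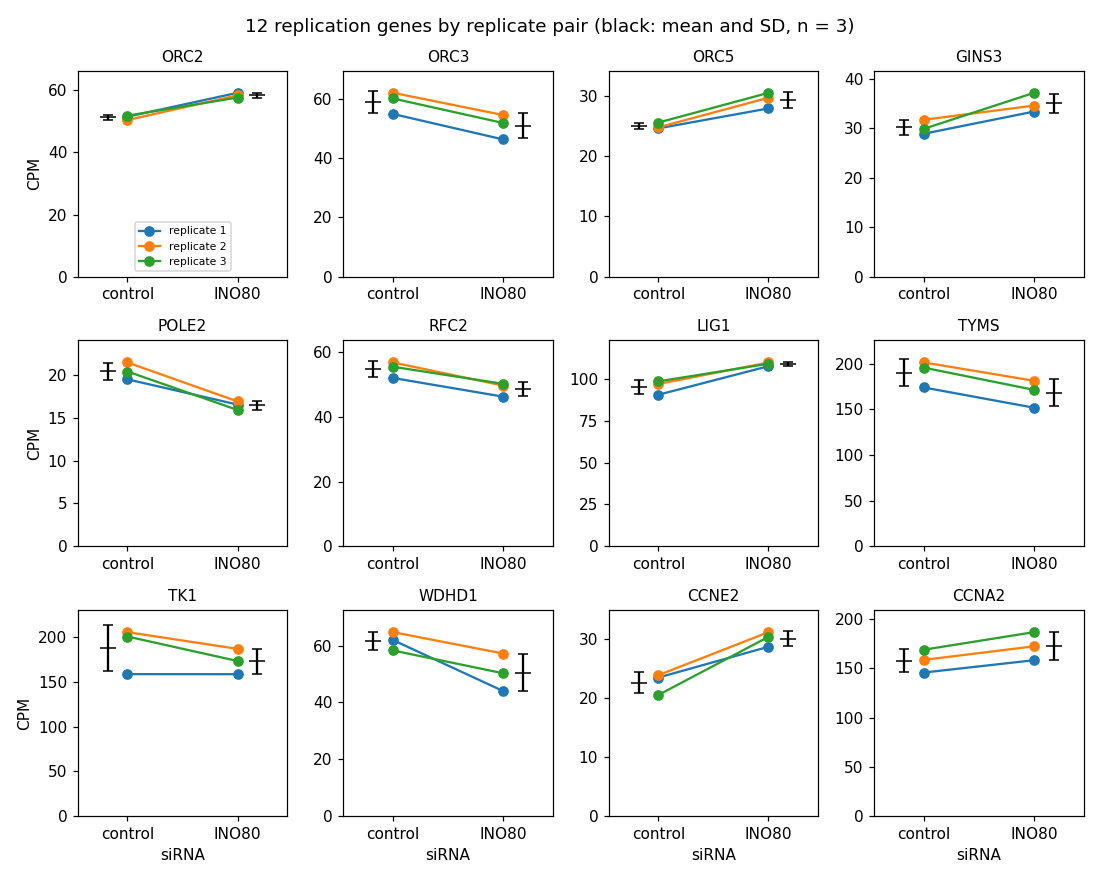
CPM of the 12 members with the smallest p in the fit with the replicate block, under control and INO80 siRNA, with lines joining libraries of the same replicate number and black marks for the mean and SD (n = 3). The lines run nearly parallel in TYMS and CCNA2, while those of TK1 range from level in replicate 1 to a drop in replicate 3.

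Further replication factors, 52 genes matched from a list of 53, held genes that were lower in edgeR with the treatment alone. These were 2 of the 52, MCM2 and POLE4, beside 1.75% of all tested genes. With the replicate block 16 were lower and 3 were higher, or 36.5% in all, beside 24.8% of all tested genes (13.4% lower, 11.4% higher). MCM2, a subunit of the MCM helicase, was at 210.4, 279 and 265 CPM with control siRNA and at 95.4, 127 and 122 CPM with INO80 siRNA, a log2 ratio of -1.13 with a standard error of 0.133 and an edgeR adjusted p of 0.00852. POLE4, an accessory subunit of polymerase epsilon like POLE2, was at 82.7 ± 3.75 CPM with control siRNA and 63.6 ± 3.56 CPM with INO80 siRNA (SD, n = 3), with an edgeR adjusted p of 0.0372 for a log2 ratio of -0.38 ± 0.0664. Both calls were lost without control siRNA replicate 2 or 3 or INO80 siRNA replicate 3, and 1 gene was called when any other library was left out. Replicate 1 was the lowest of its group for MCM2 as well. Next by the fit with the replicate block were ASF1B, a histone chaperone, at -0.54 (adjusted p = 0.102, or 1.97e-09 with the replicate block, edgeR), DTYMK, which makes dTDP, at -0.38 (0.0801, or 4.36e-07), and TOP2B, a topoisomerase, at -0.27 (0.0511, or 6.60e-06). The median log2 ratio of the 52 genes was -0.06, or -0.05 without MCM2.

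Mitotic genes, the list nearest to these in the cell cycle, had a median log2 ratio of 0.03 over 20 genes. None was called in edgeR with the treatment alone, 1 had an unadjusted p under 0.05 (edgeR) and none was called by DESeq2. With the replicate block 6 were higher and 1 was lower, or 35% of the 20, beside 24.8% of all tested genes (11.4% higher, 13.4% lower). DESeq2 with the replicate block called 1, beside 13.9% of all genes with an adjusted p there. The blocked edgeR fit called 2 without replicate 2 and 1 without replicate 3, beside 2623 of 15439 and 2251 of 15409 tested genes. The smallest p values in the blocked fit of all 6 libraries were those of NUSAP1, TPX2, KIF23, CDK1 and PLK1. Their log2 ratios were 0.17, 0.14, 0.14, 0.14 and -0.14, with adjusted p of 0.00404, 0.00484, 0.0103, 0.0109 and 0.0244 (edgeR with the replicate block). MKI67, the proliferation marker, was at 468 ± 35.2 and 469 ± 32.9 CPM (SD, n = 3), with a 95% interval of -0.17 to 0.18 for the log2 ratio. Of 12 tested genes of the E2F and RB family, 3, or 25%, had an unadjusted p under 0.05 (edgeR), beside 16.4% of all tested genes. With the replicate block 2 were lower and 1 was higher, also 25%, beside 24.8% of all tested genes. E2F1 had a log2 ratio of 0.30 (adjusted p = 0.0566, edgeR, or 4.06e-05 with the replicate block). Its relation to the 45 genes was not tested.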

How the data were processed

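RNA of 6 HK-2 libraries was sequenced with a directional poly(A) kit. Per the file headers and the submitters' processing notes, the deposited table holds raw gene counts on GRCh37 (hg19) gene models, with HISAT2 2.0.1 and HTSeq named as tools. Strand handling in counting is not given in the sources used here. For 13 members, an overlapping gene was counted with over 10% as many reads. Besides those named by role, these were CHAF1A (UBXN6, 94.1%), GINS2 (GSE1, 76.3%), DBF4 (SLC25A40, 71.6%), FEN1 (TMEM258, 39.4%, and FADS2, 15.8%) and POLA1 (EEF1B2P3, 26.8%). Reads shared with these genes were not tested. The authors also deposited FPKM values, scaled to exonic length and library total. No comparison columns were used.

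The counts were tested with edgeR 4.0.16 in R 4.3.3 by the quasi-likelihood test, after filterByExpr and TMM scaling, with the treatment as the only term and Benjamini-Hochberg adjustment over all 15343 genes tested, at an adjusted p under 0.05. Same-numbered libraries deviated together from their group means (Pearson's r across genes of 0.64, 0.45 and 0.43, against at most 0.16 between different numbers), so the replicate number pairs the libraries, as a pattern of the data, and the blocked fit is given beside the other. DESeq2 1.42.0, limma 3.58.1 on log2(FPKM + 0.1) and log2(FPKM + 1), other scalings and filters, and leaving out each library were the alternatives. The code was tested on simulated data with planted changes larger than that of any member. That test does not show how well changes as small as those of the members are found.

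Full statistics are given for the 12 members with the smallest p in the blocked fit, the other members are given by role, and any other gene is named from a listed group or for an overlap. The members and lists were chosen with earlier results of these data known. Counts limit the precision as given by each interval, and no library or gene had to be left out of the tests beyond the filter. Promoter windows are those of RefSeq on GRCh38.p14, matched by symbol, and their coordinates are of that build.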

Additional observations from a re-analysis of the deposited data

How the results depend on the processing

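Of the 45 members, none was called by edgeR with the treatment alone, with median-ratio scaling, with library totals only, with a mean FPKM of at least 1, by limma with either pseudocount, or without any 1 library (0 to 0). The replicate block called 13, and 14, 7 and 6 without replicate 1, 2 and 3 of both groups. No filter on low counts gave 1, DESeq2 1, DESeq2 with the replicate block 5 and an adjusted p under 0.1 1. Over all genes 268 were called, against 3798 with the replicate block (3978, 2623 and 2251 without replicate 1, 2 and 3), 708 without a filter, 610 by DESeq2, 1691 by DESeq2 with the replicate block, 76 and 80 by limma with pseudocounts of 0.1 and 1, 14 with an absolute log2 ratio of at least 1, 603 at an adjusted p under 0.1 and 18 to 146 without 1 library. Of the 52 further replication factors 2 were called, against 19 with the replicate block (23, 9 and 13 without replicate 1, 2 and 3), 1 with library totals only, 5 without a filter, 5 by DESeq2, 10 by DESeq2 with the replicate block, 1 by limma with either pseudocount, 1 with the log2 limit, 4 at an adjusted p under 0.1 and 0 to 1 without 1 library. Of the 20 mitotic genes none was called, against 7 with the replicate block (7, 2 and 1 without replicate 1, 2 and 3) and 1 by DESeq2 with the replicate block. The cause of these differences was not tested. The replicate block changed no call of INO80. INO80 and the 12 members with full statistics kept their direction under every alternative, with INO80 between -1.98 and -1.47. The members' median lay between -0.09 and 0.02.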
